A study of Mus musculus with 2 samples.

Results

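The genes described here are 10 mouse genes of antibody-binding and immunoglobulin-like receptors of leukocytes, namely Fcgr1, Fcgr3, Fcgr4, Fcgr2b, Pirb, Lilrb4a, Lilr4b, Fcer1g, Tyrobp and Fcgrt. They were taken by name from a table of 24421 genes, and they were selected on the read counts of the same libraries, control and stretched. Their changes are therefore a description and support no test. The study compared whole-layer back skin of wild type C57BL6/J mice, held at 33% strain for 5 days in a skin-stretching device, with skin left without strain and taken at day 5. The methods give 8-week-old female mice with hair follicles in telogen, the resting phase of the hair cycle, and a gradual daily increase of the strain. Each condition had 1 RNA-seq library. The number of animals in a library is not given in the sources used here. The controls of the study's hair-growth experiment wore no device, and whether this also holds for the sequenced control skin is not given.

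Fc receptors bind the constant part of antibodies and let leukocytes sense antigen that antibody has coated. Fcgr1, Fcgr3 and Fcgr4 encode activating receptors for IgG. They carry no signalling motif of their own and signal through the Fc receptor gamma chain, encoded by Fcer1g, whose tail holds an immunoreceptor tyrosine-based activation motif (ITAM). Fcgr2b encodes the inhibitory IgG receptor, which holds an immunoreceptor tyrosine-based inhibition motif (ITIM) and recruits phosphatases that oppose ITAM signalling. Pirb and Lilrb4a encode inhibitory receptors of the leukocyte immunoglobulin-like family, with ITIMs in their own tails. Tyrobp encodes DAP12, an ITAM adaptor for many myeloid and natural killer cell receptors, and Fcgrt encodes the neonatal Fc receptor, which rescues IgG and albumin from degradation and does not signal through an ITAM.

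The grouping of the inhibitory genes and the adaptors was checked on the coding sequences of the GENCODE M21 principal transcripts on mm10. The tail of each protein was searched for ITIMs and ITAMs. This search cannot check the activating group, which was set from the known pairing of Fcgr1, Fcgr3 and Fcgr4 with Fcer1g. The stretches found are shown because they mark the inhibitory genes and the adaptors. They are written on the coding strand, with the codons of the signalling tyrosines in capitals.
Fcgr2b ITIM, exon 8, chr1:170961071-170961088, minus strand: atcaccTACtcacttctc
Pirb ITIM, exons 12 to 13, minus strand: agcctaTATgcttcagtg
Pirb ITIM, exon 15, chr7:3712786-3712803, minus strand: gtgaccTATgcccagctg
Pirb ITIM, exon 15, chr7:3712696-3712713, minus strand: agtgtaTATgctactctg
Lilrb4a ITIM, exon 8, chr10:51496021-51496038, plus strand: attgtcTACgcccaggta
Lilrb4a ITIM, exon 9, chr10:51496194-51496211, plus strand: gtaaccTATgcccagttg
Fcer1g ITAM, exons 4 to 5, minus strand: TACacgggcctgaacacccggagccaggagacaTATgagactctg
Tyrobp ITAM, exons 4 to 5, plus strand: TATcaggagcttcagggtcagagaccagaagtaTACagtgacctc
Neither motif was found in the tails of Fcgr1, Fcgr3, Fcgr4, Lilr4b or Fcgrt. In Tyrobp the ITIM pattern also matched at the first tyrosine of the ITAM, and this overlapping match was not counted as an ITIM.

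On mm10, 6 of the genes lie near another of the 10. Fcgr2b (chr1:170958617-170976547), Fcgr4 (chr1:171018920-171029761), Fcgr3 (chr1:171051174-171064935) and Fcer1g (chr1:171229572-171234365) are close together on chromosome 1. Fcgr1 is at chr3:96282909-96293969, Pirb at chr7:3711409-3720391, Tyrobp at chr7:30413760-30417585 and Fcgrt at chr7:45092990-45103851. Lilr4b (chr10:51480632-51486703) and Lilrb4a (chr10:51490956-51496611) are neighbours on chromosome 10. How the counting treated reads shared by similar genes is not given in the sources used here. Of the 76-base stretches in its exons, Lilrb4a shared 40.0% with other genes, chiefly the annotated gene Gm49339 and Lilr4b. The share was 26.7% for Pirb, chiefly with Gm14548 and the activating relative Pira2, and 14.7% for Lilr4b. The counts of these 3 genes are uncertain for that reason. The share was 5.39% for Fcgr2b and 5.31% for Fcgr3, and no stretch of Fcgr1, Fcgr4, Fcer1g, Tyrobp or Fcgrt was shared.

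Fcgr4 and Fcgr1 had the largest fold changes among the 10 genes, and the 250 bases before the RefSeq start of each (GRCm38.p6, the assembly of mm10) are shown. Capitals mark matches to the core site of the myeloid factor PU.1 (GAGGAA), the gamma-activated site (TTCNNNGAA) and the interferon-response pattern (GAAANNGAA), searched on both strands, so that TTCCTC is the PU.1 core read on the other strand.
Fcgr4 promoter, chr1:171018676-171018925, plus strand: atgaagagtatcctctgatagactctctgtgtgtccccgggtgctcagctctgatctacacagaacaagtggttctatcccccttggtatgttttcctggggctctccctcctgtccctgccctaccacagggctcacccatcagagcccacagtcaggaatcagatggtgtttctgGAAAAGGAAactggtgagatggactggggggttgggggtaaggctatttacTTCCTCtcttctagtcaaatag
Fcgr1 promoter, chr3:96293970-96294219, minus strand: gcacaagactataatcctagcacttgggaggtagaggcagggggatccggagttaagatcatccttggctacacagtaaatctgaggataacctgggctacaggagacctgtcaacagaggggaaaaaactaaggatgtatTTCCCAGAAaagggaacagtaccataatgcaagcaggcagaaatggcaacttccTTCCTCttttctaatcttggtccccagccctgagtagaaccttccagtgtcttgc
In Fcgr4 the interferon-response match, GAAAAGGAA, lay 73 to 65 bases before the start and the PU.1 core 22 to 17 bases before it. In Fcgr1 the gamma-activated match, TTCCCAGAA, lay 109 to 101 bases before the start and the PU.1 core 55 to 50 bases before it. RefSeq windows were found for 8 of the 10 genes. The PU.1 core was also present before Fcgr3 and, at 3 places, before Pirb, and a gamma-activated match before Lilr4b. No match to any of these patterns was found before Fcgr2b, Fcer1g or Fcgrt. Among all 32851 windows of that length, 23.3% held the PU.1 core, 7.02% the gamma-activated pattern and 7.13% the interferon-response pattern. These matches are a description of the sequence and no factor was measured at them.

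The control library held 14152379 counts and the stretched library 11648655, and 3 counts stand for 0.212 and 0.258 CPM, the count scaled to a common library total. With 1 library per condition there is no replicate check and no p-value. A fold change is the ratio of CPM in stretched over control skin, given on the log2 scale with an exact 95% Clopper-Pearson interval, which covers counting error only and compares these libraries. The median log2 fold change was -0.12 over the 16255 measured genes, those above 3 counts in at least 1 library. Keratin genes of keratinocytes (Krt5, Krt14, Krt10 and Krt1) together held 13803 CPM in control and 14711 CPM in stretched skin. Skeletal muscle genes were unequal, with Myh4 at 6432 and 271 CPM and Ckm at 3591 and 1740, against Acta1 at 9034 and 8593 and Ttn at 1733 and 1458.

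All 10 genes had a higher CPM in stretched skin, and the interval lay wholly above 0 for all 10, against 17.8% of all measured genes, while 33.3% had an interval wholly below 0. In bulk skin, more cells of a type cannot be told apart from more RNA per cell, nor fewer cells from less RNA per cell. Because the genes were taken with these values in view, nothing is read from that difference. By a filter and threshold modelled on those of the study's methods, 7 genes were upregulated and 0 were downregulated. The filter keeps genes whose FPKM values in the libraries have a product (EV) above 10, and a call needs a fold change of 2 or more, or 0.5 or less. The methods name no pseudocount. Adding 1 to each FPKM, in the product and in the fold change, was a choice made here, and with 0 added 6 of the genes were called, without Fcgr4. The same rule called 2.61% of the 10911 genes past the filter upregulated and 2.44% downregulated. The filter kept 8 of the 10 genes. Fcgr4, with an EV of 12.8, was just inside it, and Lilrb4a, with 9.13, and Lilr4b, with 4.78, were outside. The remaining gene, Fcgrt, passed the filter and was below the fold threshold. The median log2 fold change was 1.58 over the 10 genes.

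**Figure D1:**
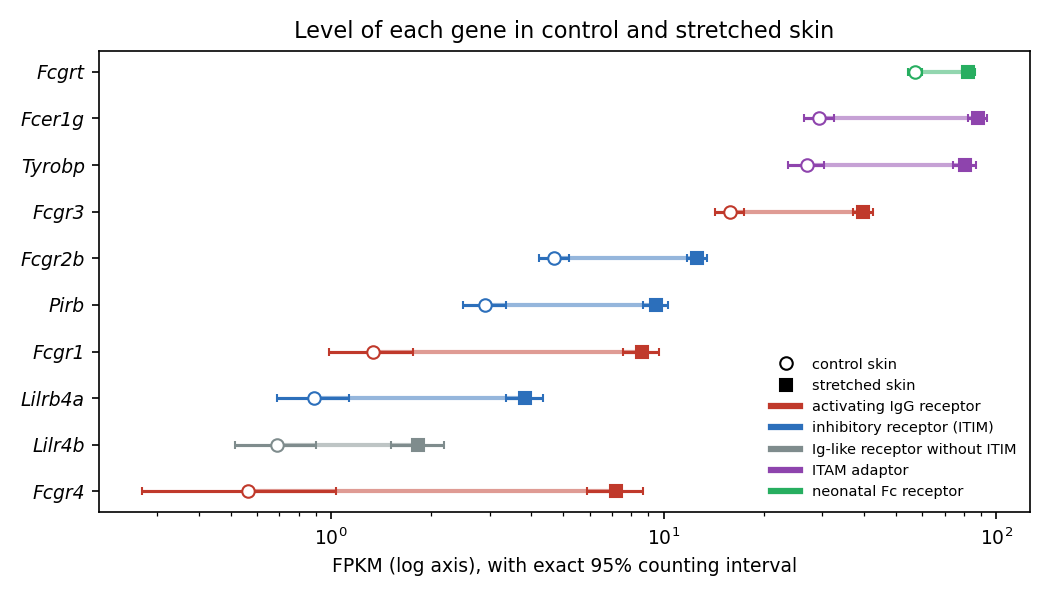
Level of each gene in FPKM (log axis) in the control library (open circles) and the stretched library (filled squares), with exact 95% intervals for counting error. Levels in control skin ran from 0.563 FPKM for Fcgr4 to 57.1 FPKM for Fcgrt, and in stretched skin from 1.83 FPKM for Lilr4b to 88.2 FPKM for Fcer1g.

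Per length, Fcgrt and the ITAM adaptors were the most abundant of the 10 genes. Fcgrt held 57.1 FPKM in control skin, Fcer1g 29.4 and Tyrobp 26.9. In stretched skin the order at the top was Fcer1g at 88.2, Fcgrt at 82.5 and Tyrobp at 80.6 FPKM. Among the IgG receptors Fcgr3 was the most abundant in both libraries, and the adaptors were above every IgG receptor. Levels of Lilrb4a and Lilr4b depend on the transcript length used, since the longest transcript of each is not protein-coding. With the longest protein-coding transcript as length, Lilrb4a was at 3.38 FPKM in control and 14.5 in stretched skin, against 0.892 and 3.83 FPKM with all exons, and Lilr4b at 2.04 and 5.42 against 0.689 and 1.83.

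All 3 activating IgG receptors were upregulated in stretched skin, by amounts that were far apart. Fcgr4, a mouse receptor for IgG2a and IgG2b, had 10 counts in control and 105 in stretched skin, or 0.563 and 7.18 FPKM. Its log2 fold change of 3.67 (2.74 to 4.78) was exceeded by 21 of the measured genes. The control count is low, and the width of the interval shows it. Fcgr1, the high-affinity IgG receptor CD64, had 49 and 259 counts, or 1.34 and 8.59 FPKM. Its log2 fold change was 2.68 (2.24 to 3.15), and 72 genes had a higher one. Fcgr3, a low-affinity IgG receptor of macrophages, mast cells and natural killer cells, had 388 and 804 counts, or 15.8 and 39.8 FPKM. At 1.33 (1.16 to 1.51) on the log2 scale it was the lowest of the activating receptors. The ratio of Fcgr1 to Fcgr3 was 2.55 times as high in stretched as in control skin (1.82 to 3.62), and that of Fcgr4 to Fcgr3 was 5.07 times as high (2.61 to 11.0). The log2 fold changes of Fcgr4 and Fcgr1 were within counting error of each other, with a ratio of ratios of 1.99 (0.947 to 4.56).

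The inhibitory receptors were also higher in stretched skin. Fcgr2b, the inhibitory IgG receptor, had 384 counts in control and 852 in stretched skin, or 4.69 and 12.6 FPKM, and was upregulated with a log2 fold change of 1.43 (1.26 to 1.61). Pirb, an inhibitory receptor for MHC class I, had 184 and 493 counts, or 2.91 and 9.47 FPKM. It was upregulated with a log2 fold change of 1.70 (1.46 to 1.96). Lilrb4a, an inhibitory receptor of myeloid and mast cells also called gp49B, had 66 and 233 counts and a log2 fold change of 2.10 (1.70 to 2.52). Lilrb4a was not called, as its EV was below 10, although its fold change was the largest of the inhibitory receptors. The log2 fold changes of the inhibitory receptors spanned less than those of the activating ones. Relative to Fcgr2b, Lilrb4a was 1.59 times as high in stretched as in control skin (1.17 to 2.18) and Pirb 1.21 times (0.976 to 1.50), the latter within counting error.

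**Figure D2:**
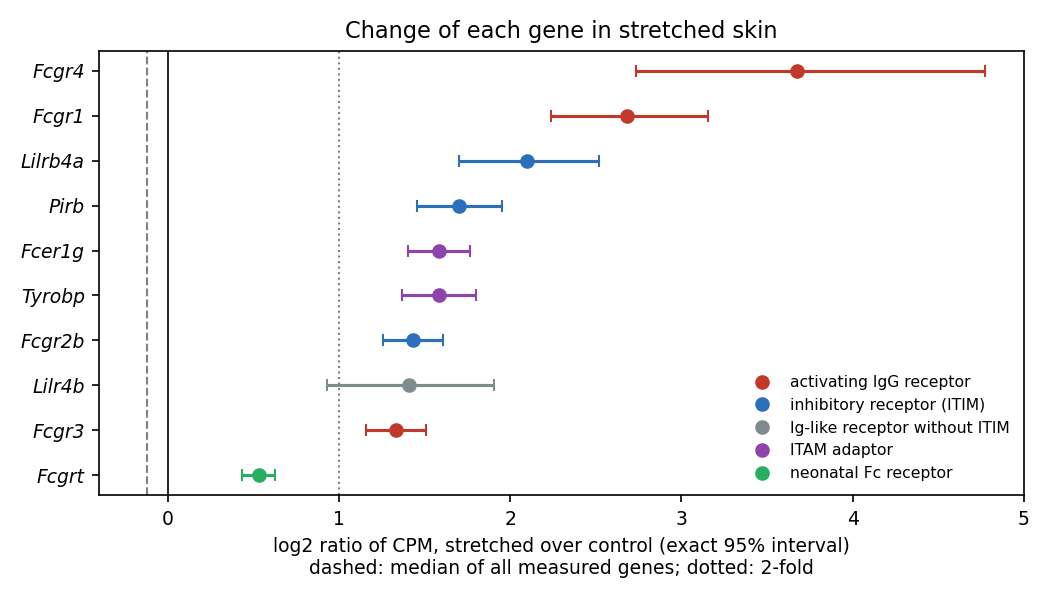
Log2 ratio of CPM in stretched over control skin for each gene, with its exact 95% interval, coloured by role. Fcgr4 and Fcgr1 lie above the rest at 3.67 and 2.68, Fcgrt is lowest at 0.53, and the other genes lie between 1.33 and 2.10, all to the right of the median of all measured genes (-0.12).

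Set against each other, the activating and inhibitory receptors gave different answers for different genes. The median log2 fold change was 2.68 over the 3 activating and 1.70 over the 3 inhibitory receptors. A ratio within a library does not depend on how the libraries are scaled. Per kilobase, the summed activating receptors stood at 3.78 times Fcgr2b in control skin and 4.40 times in stretched skin. In counts this ratio was 1.18 times as high in stretched skin, with an interval of 0.998 to 1.39, so that a change was not detectable at this depth. Over all 3 inhibitory receptors together, the ratio per kilobase was 2.09 in control and 2.14 in stretched skin, and the change in counts was 1.05 (0.908 to 1.21). The sums were dominated by Fcgr3, the most abundant of the activating receptors.

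Taken gene by gene, the proportion of Fcgr3 to Fcgr2b differed by less than counting error. The ratio of Fcgr3 to Fcgr2b per kilobase was 3.37 in control and 3.15 in stretched skin, a change of 0.934 (0.784 to 1.11). Fcgr1 relative to Fcgr2b went from 0.285 to 0.680, a change of 2.38 (1.70 to 3.38). Fcgr4 relative to Fcgr2b went from 0.120 to 0.568, a change of 4.73 (2.44 to 10.3). Both of the receptors that were scarce in control skin thus gained on the inhibitory IgG receptor, and the abundant one did not detectably do so. Against Pirb, the change was 3.92 for Fcgr4 (1.99 to 8.59) and 1.97 for Fcgr1 (1.38 to 2.86), while Fcgr3 lost ground, at 0.773 (0.624 to 0.957). Against Lilrb4a it was 2.97 for Fcgr4 (1.44 to 6.74), 1.50 for Fcgr1 (0.975 to 2.31) and 0.587 for Fcgr3 (0.428 to 0.797). Of these 9 pairs of an activating with an inhibitory gene, 7 had an interval that excluded no change, in both directions. Over all 45 pairs of the 10 genes the number was 28. Ordered by fold change, only 1 of the 9 neighbouring pairs was separated beyond counting error, namely Fcgr3 and Fcgrt.

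**Figure D3:**
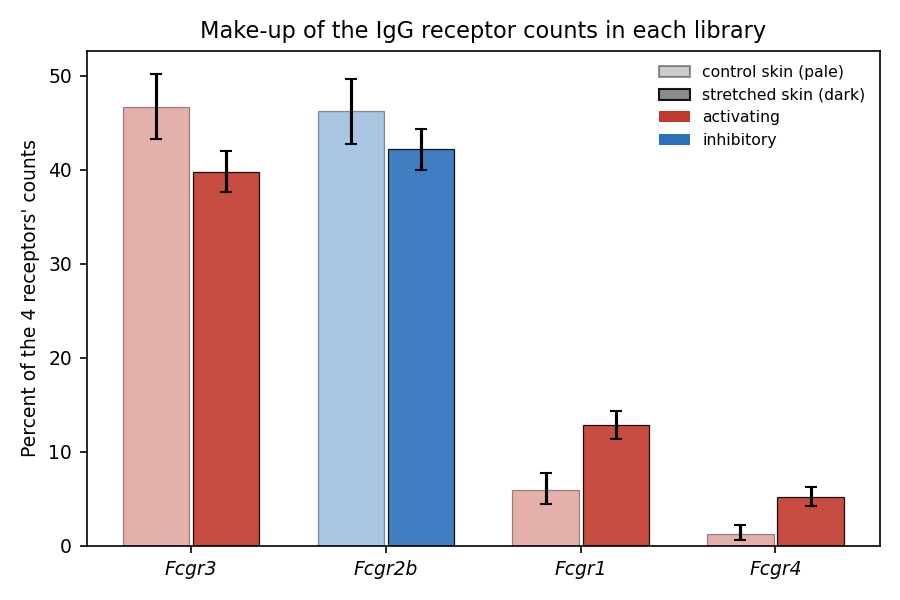
Percent of the summed counts of the 4 IgG receptor genes held by each gene in the control library (pale bars, 831 counts) and the stretched library (dark bars, 2020 counts), with exact 95% binomial intervals. Fcgr3 and Fcgr2b held most counts in both libraries, and Fcgr1 and Fcgr4 had larger shares in stretched skin, 12.8% against 5.90% and 5.20% against 1.20%.

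The make-up of the IgG receptor counts shows the same data as shares. Fcgr3 held 46.7% of the 831 counts in control skin (exact binomial interval 43.3 to 50.2) and 39.8% of the 2020 in stretched skin (37.7 to 42.0). Fcgr2b held 46.2% (42.8 to 49.7) and 42.2% (40.0 to 44.4), with overlapping intervals. The share of Fcgr1 was 5.90% (4.39 to 7.72) and 12.8% (11.4 to 14.4), and that of Fcgr4 was 1.20% (0.579 to 2.20) and 5.20% (4.27 to 6.26). For neither of these did the intervals overlap. Per kilobase, which allows for the different lengths of the genes, the inhibitory receptor made up 20.9% of the IgG receptor total in control and 18.5% in stretched skin, and Fcgr3 made up 70.6% and 58.3%.

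Lilr4b, also called gp49A, is the neighbour of Lilrb4a and lacks an ITIM in its tail. It had 53 counts in control and 116 in stretched skin, with a log2 fold change of 1.41 (0.93 to 1.91). It was below the filter and was not called. Relative to Lilrb4a, its ITIM-bearing relative, it was 0.620 times as high in stretched as in control skin (0.397 to 0.972). The shared stretches noted above touch both sides of this ratio.

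The ITAM adaptors moved in step. Fcer1g, the gamma chain that the activating IgG receptors need, had 364 and 898 counts, or 29.4 and 88.2 FPKM, and was upregulated with a log2 fold change of 1.58 (1.41 to 1.76). Tyrobp, or DAP12, had 254 and 626 counts, or 26.9 and 80.6 FPKM, and was upregulated by 1.58 on the same scale (1.37 to 1.80). The ratio of Tyrobp to Fcer1g per kilobase was 0.914 in control and 0.913 in stretched skin, a change of 0.999 (0.823 to 1.21). The summed activating IgG receptors relative to their adaptor Fcer1g changed by 1.06 (0.896 to 1.25), which was within counting error. Fcer1g relative to Fcgr2b changed by 1.11 (0.933 to 1.33).

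Fcgrt had the lowest fold change of the 10 genes and was the one separated from its neighbour in that order beyond counting error. It had 1699 counts in control and 2019 in stretched skin, or 57.1 and 82.5 FPKM, and its log2 fold change of 0.53 (0.44 to 0.62) was below the threshold for a call. The log2 fold change of Fcgr3, the next gene in the order, was 0.80 higher, and the interval of this difference started at 0.60. B2m, which encodes beta-2 microglobulin, the partner chain of the neonatal Fc receptor and of MHC class I, had 6104 and 7181 counts and a log2 fold change of 0.52 (0.47 to 0.56). The ratio of Fcgrt to B2m changed by 1.01 (0.938 to 1.09). Endothelial cells also express Fcgrt. Of 5 endothelial markers 3 had an interval above 0 and 1 below it, beside 17.8% and 33.3% of all measured genes. Their sum was 186 CPM in control and 248 CPM in stretched skin, with a median log2 fold change of 0.50. The part of endothelial cells in the value of Fcgrt was not tested.

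Macrophage, monocyte and general leukocyte markers were higher in the same library as the receptors. Of 7 macrophage markers (Adgre1, Csf1r, Cd68, Mrc1, Mertk, Lyz2 and Itgam), 6 had an interval above 0 and 5 were upregulated, beside 17.8% of all measured genes and 2.61% of those past the filter, and their sum was 628 CPM in control and 1475 CPM in stretched skin. The exception was Mertk, with 321 and 243 counts. Their median log2 fold change was 1.24. All 5 monocyte markers had intervals above 0, with a median of 2.53 and a sum of 32.6 and 112 CPM. All 6 general leukocyte genes did so too, with a median of 1.48 and a sum of 151 and 396 CPM. Their part in the values of the receptors was not tested.

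**Figure D4:**
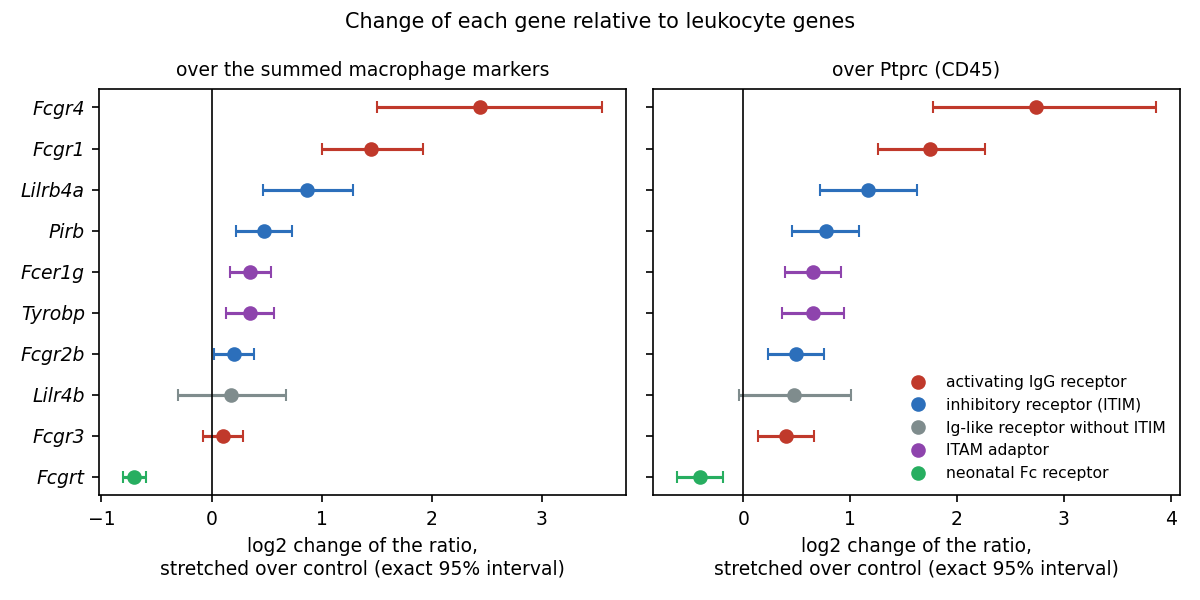
Log2 change, stretched over control, of the ratio of each gene's counts to the summed counts of 7 macrophage markers (left) and to Ptprc, the gene of CD45 (right), with exact 95% intervals. Fcgr4 and Fcgr1 stay farthest above 0 in both panels, Lilr4b includes 0 in both, Fcgr3 includes 0 on the left, and Fcgrt lies below 0 in both.

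Each gene was therefore also expressed relative to these markers within a library. Relative to the summed macrophage markers, Fcgr4 was 5.43 times as high in stretched as in control skin (2.84 to 11.7) and Fcgr1 2.74 times (2.01 to 3.80). Lilrb4a was 1.83 times as high (1.38 to 2.44), Pirb 1.39 times (1.17 to 1.66), Fcer1g 1.28 times (1.13 to 1.45) and Tyrobp 1.28 times (1.10 to 1.49). Fcgr2b was at 1.15 (1.01 to 1.30). The intervals of Fcgr3, at 1.07 (0.946 to 1.22), and Lilr4b, at 1.13 (0.811 to 1.60), included no change. Fcgrt was lower relative to the same markers, at 0.615 (0.574 to 0.660). Lyz2 alone held 3975 of the 8891 marker counts in control and 8471 of the 17178 in stretched skin. The log2 fold changes of the single markers ran from -0.12 to 1.56, so changes near 1 depend on how the markers are weighted. Relative to Ptprc, the common leukocyte gene of CD45, the change was 1.32 for Fcgr3 (1.10 to 1.58), 1.41 for Fcgr2b (1.18 to 1.69), 3.36 for Fcgr1 (2.40 to 4.79) and 0.756 for Fcgrt (0.652 to 0.877). Ptprc had the lowest log2 fold change of the 6 general leukocyte genes, 0.93 beside their median of 1.48. The log2 fold changes of Fcgr3 and Fcgr2b, 1.33 and 1.43, were below that median, so their changes relative to Ptprc depend on this reference.

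Markers of other cells that express Fc receptors were also measured, and their counts are to be read beside the same 17.8% and 2.61%. Of 7 neutrophil markers tabulated, 5 were measured, 4 had intervals above 0 and 3 were upregulated, with a median log2 fold change of 1.90 and a list sum of 14.6 CPM in control and 67.7 CPM in stretched skin. The upregulated ones were S100a8, with 57 and 283 counts, S100a9, with 69 and 187, and Csf3r, with 50 and 235. Cxcr2 had 25 and 77 counts. Among the granule genes, Mpo had 0 and 3 counts, Ltf 0 and 1, and Camp 6 and 3. Of 9 mast cell markers, 7 had intervals above 0, and their sum was 270 and 386 CPM with a median log2 fold change of 0.59. Kit, with 470 and 250 counts, was lower. Natural killer cell markers summed to 3.32 and 6.78 CPM, with Ncr1 at 0 and 5 counts and Eomes at 0 and 3, and B cell markers to 1.48 and 1.89 CPM, with Ms4a1 at 0 in both libraries. Of 8 dendritic and Langerhans cell markers, 4 had an interval above 0 and 4 one that included 0, with a sum of 134 and 147 CPM and a median log2 fold change of 0.49. The part of these cells in the receptor values was not tested.

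**Figure D5:**
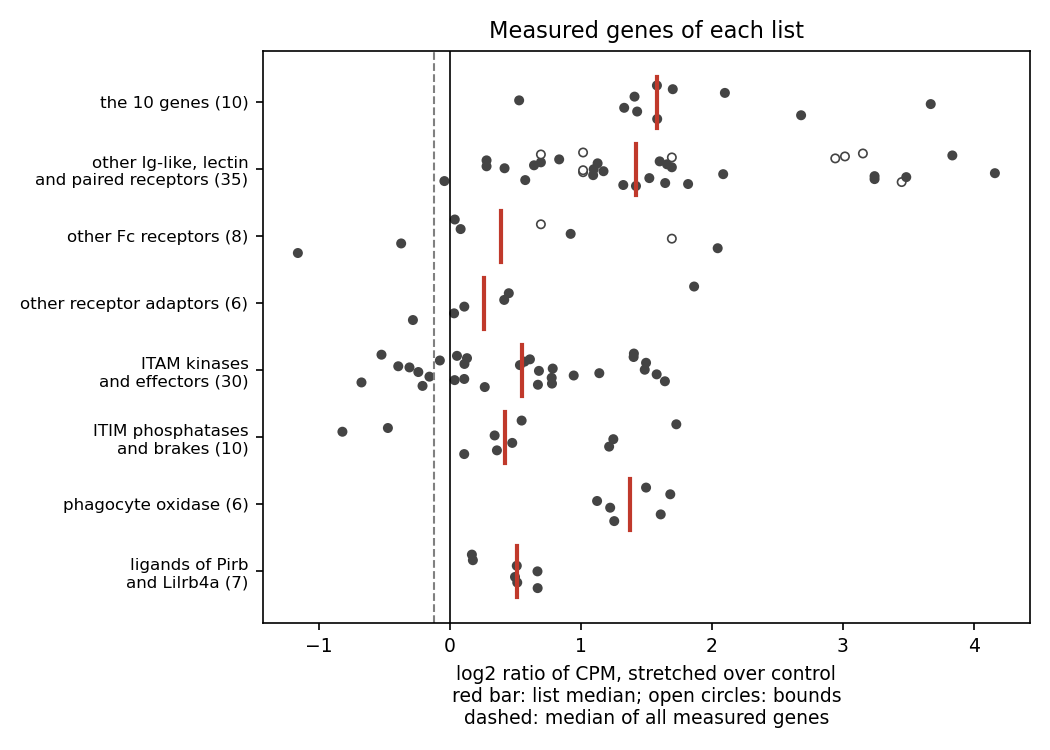
Log2 ratio of CPM in stretched over control skin for the measured genes of each list, with a red bar at the list's median, open circles for genes whose value is a bound because a library had 3 counts or fewer, and a dashed line at the median of all measured genes. The other immunoglobulin-like, lectin and paired receptors have a median of 1.42 and the phagocyte oxidase 1.38, while the kinases and effectors of ITAM signalling have 0.55 and the phosphatases and brakes 0.42.

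The receptors' relatives were described from lists drawn up with earlier results of these data known. Of 46 other immunoglobulin-like, C-type lectin and paired receptors of leukocytes, 35 were measured. Among these, 34 were higher in stretched skin, 23 had an interval above 0 and 0 had one below it, beside 17.8% and 33.3% of all measured genes. Of the 6 that passed the filter 4 were upregulated, beside 2.61% of all genes past it. Their median log2 fold change, with bounds taken at their value, was 1.42, against -0.12 over all measured genes. Among the upregulated genes, Clec7a, the beta-glucan receptor Dectin-1, had 44 and 154 counts and a log2 fold change of 2.09 (1.60 to 2.61). Siglec1, a sialic acid receptor of macrophages, had 242 and 629 counts and 1.66 (1.44 to 1.88) on the same scale. Cd300ld, an activating receptor of the CD300 family, had 47 and 121 counts and 1.65 (1.15 to 2.16), and Clec4a2, an inhibitory C-type lectin, 79 and 187 counts and 1.52 (1.14 to 1.92). Most of the list was expressed too weakly to pass the filter.

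Of 13 other Fc receptors and Fc-binding proteins, 8 were measured, 2 of which had an interval above 0 (17.8% of all measured genes) and 1 below it (33.3%), and none of the 2 that passed the filter was called. Their median log2 fold change was 0.39. Fcrls, an Fc receptor-like scavenger receptor, had 337 and 526 counts and a log2 fold change of 0.92 (0.72 to 1.13). The high-affinity IgE receptor uses the same gamma chain Fcer1g. Its ligand-binding chain Fcer1a had 5 and 17 counts and a log2 fold change of 2.05 (0.55 to 3.84), below the filter. Its beta chain Ms4a2 had 39 and 34 counts and a log2 fold change of 0.08 (-0.62 to 0.78). Fcamr, a receptor for IgM and IgA, had 38 and 14 counts and a log2 fold change of -1.16 (-2.16 to -0.24), below the filter. Of the antibody ligands of these receptors little can be said, since 10 of the 14 immunoglobulin and plasma cell genes were not found by name among the 24421 genes. Sdc1, a plasma cell gene that keratinocytes also express, had 6906 and 4656 counts and a log2 fold change of -0.29 (-0.34 to -0.23). Xbp1, a transcription factor of secretory cells, had 2577 and 2285 counts and 0.11 (0.03 to 0.19), and neither was called.

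Downstream of the adaptors, the list of kinases and effectors of ITAM signalling held genes of both directions. Of 30 genes, 17 had an interval above 0 (17.8% of all measured genes), 5 below it (33.3%) and 8 across it, and 4 of the 23 past the filter were upregulated (2.61% of all genes past it). The upregulated genes are typical of leukocytes. They were Lcp2, the adaptor SLP-76, with 89 and 219 counts and a log2 fold change of 1.58 (1.22 to 1.95), Rac2, a small GTPase of leukocytes, at 1.50 (1.24 to 1.76), Was, the actin regulator lost in Wiskott-Aldrich syndrome, at 1.41 (0.93 to 1.89), and Vav1, a guanine nucleotide exchange factor, at 1.40 (1.06 to 1.76). Syk, the kinase that binds the phosphorylated ITAM, had 492 and 619 counts and a log2 fold change of 0.61 (0.44 to 0.79), below the threshold. Syk was named after its values were seen, for its place in the pathway. The 5 genes with an interval below 0, also named after their values were seen, were Cbl (-0.67), Vav3 (-0.52), Plcg1 (-0.39), Pik3r1 (-0.31) and Malt1 (-0.24). None of these was called. The list of other adaptors, with the ITAM chains of T and B cell receptors and Hcst, had a median of 0.26 over 6 measured genes, none past the filter. Hcst encodes DAP10, which has no ITAM, and was the 1 gene with an interval above 0, at 4 and 12 counts. Among the ITAM chains Cd3g had 51 and 56 counts, Cd3e 27 and 24, Cd3d 19 and 16, and Cd247 158 and 107.

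The phosphatases and brakes of ITIM signalling likewise held genes of both directions. Of 10 genes, 6 had an interval above 0 and 2 below it, beside the same 17.8% and 33.3% of all measured genes. Of the 8 past the filter 1 was upregulated, beside 2.61% of all genes past it, and the median log2 fold change was 0.42. The upregulated gene was Dok2, a docking protein of leukocytes, with 172 and 329 counts and 1.22 (0.95 to 1.49). Inpp5d, which encodes SHIP-1, the lipid phosphatase that Fcgr2b recruits, had 228 and 446 counts and a log2 ratio of CPM of 1.25 (1.02 to 1.49). It was not called, since with 1 added to each FPKM its log2 fold change was 0.95. Ptpn22, a leukocyte tyrosine phosphatase, had 26 and 71 counts and was below the filter. Pag1, a membrane adaptor that recruits the kinase Csk, had 356 and 166 counts and a log2 fold change of -0.82 (-1.09 to -0.55), also below the filter.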

How the data were processed

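Total RNA of whole-layer skin was sequenced, with 1 library per condition. According to the methods, reads of 76 bases were filtered with the FASTX-Toolkit (Phred score of at least 20, more than 35 bases) and mapped with TopHat2 on mm10. The authors deposited raw counts of reads per gene symbol. The counter, its annotation and its use of strand are not given in the sources used here. FPKM was computed from the counts with the union of exons in GENCODE M21, in which 23376 genes were found by name and 657 by synonym, and 388 had no length.

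Fold changes are ratios of CPM with nothing added. Counts up to 3 were replaced by 3, which makes the value a bound. Genes were called on FPKM with 1 added, a choice that the methods do not state. Changes of ratios carry exact conditional 95% intervals from the 4 counts. All intervals cover counting error only. The calculations were tested on simulated data.

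The members and lists were chosen with earlier results of these data known. All 10 members are named. From each list of the pathway up to 4 genes are named, called genes first and then, where fewer than 4 were called, those with the largest absolute log2 fold change among genes with 20 counts or more in both libraries together. Marker genes were outside this rule, and those named apart from their lists were chosen after their values were seen. Motifs were searched in translated coding sequences, as no protein table was used. Alternatives covered scaling (TMM in edgeR 4.0.16, median of ratios in DESeq2 1.42.0), pseudocount, filter, length and the grouping of Lilr4b, and the longest protein-coding transcript and scaling to macrophage markers were added after seeing the data. The software was R 4.3.3, Python 3.11.15, Biopython 1.88, scipy 1.17.1, numpy 2.4.6, matplotlib 3.10.9 and pandas 2.3.3. Coordinates are counted from 1.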

Additional observations from a re-analysis of the deposited data

How the results depend on the processing

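No paired analysis was possible because each condition had 1 library, and for the same reason no library could be left out. Scaling by TMM, median of ratios, upper quartile or totals that leave out the 50 top genes would raise every log2 fold change by 0.10, 0.11, 0.10 and 0.06, and all 7 calls were made under each. Fcgrt, at 0.53, then reached 0.63, 0.64 and 0.63 under the first 3, past its interval, and kept its direction. Relative to the summed macrophage markers, an alternative chosen after seeing the data, the median log2 fold change was 0.35 over the 10 genes, 1.45 over the activating and 0.47 over the inhibitory receptors. With Lilr4b counted as activating, the activating median was 2.05. With EV above 100, 3 genes were upregulated, and Fcgr1, Fcgr4, Fcgr2b and Pirb were no longer called. Adding 0 or 0.1 to each FPKM left 6 genes, without Fcgr4. No EV filter, or the longest transcript as length, gave 8, with Lilrb4a, and CPM in place of FPKM or the longest protein-coding transcript gave 9, with Lilrb4a and Lilr4b. With the EV filter kept, an interval wholly past 2-fold held for 7. Lilrb4a, outside that filter, also had one, its fold change of 4.29 having an interval that started at 3.25. The ratio of activating receptors to Fcgr2b, 1.16 times as high per kilobase in stretched skin, was 0.934 times as high with Fcgr3 alone, because the sum then lacks Fcgr1 and Fcgr4. Depth limits Fcgr4 most, since it rests on 10 counts in control skin.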

Other observations

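The phagocyte NADPH oxidase, which makes the superoxide that phagocytes release after Fc receptor engagement, was higher in stretched skin across its subunits. All 6 genes had an interval above 0, beside 17.8% of all measured genes, and 5 were upregulated, beside 2.61% of those past the filter, with a median log2 fold change of 1.38 and a sum of 73.9 CPM in control and 190 CPM in stretched skin. Cybb, the catalytic subunit, had 179 and 450 counts and a log2 fold change of 1.61 (1.36 to 1.87). Ncf4 was at 1.68 (1.24 to 2.14) and Cyba, the membrane partner of Cybb, at 1.26 (1.03 to 1.49). Rac2 stands on this list, on that of the ITAM effectors and among the general leukocyte genes.

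None of the ligand genes of Pirb and Lilrb4a, which encode MHC class I, Angptl2, integrin alphavbeta3 and fibronectin, was called. Of 7 genes 6 had an interval above 0, beside 17.8% of all measured genes, with a median log2 fold change of 0.51. B2m, given above, is 1 of them. H2-D1 had 3183 and 4168 counts, a log2 fold change of 0.67 (0.60 to 0.74), H2-K1 was at 0.51 (0.47 to 0.56) and Angptl2 at 0.67 (0.59 to 0.75). The integrin genes were lowest, with Itgav at 0.18 (0.05 to 0.31) and Itgb3 at 0.17 (-0.04 to 0.37).

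Outside the rule for named genes, 2 paired receptors are given, chosen after their values were seen. Apart from receptors whose value is a bound, they were the ones with larger log2 fold changes than any of the 10 genes. Lair1, an inhibitory collagen receptor, had 4 and 59 counts and a log2 fold change of 4.16 (2.73 to 6.09). Trem2, a lipid-sensing receptor that pairs with Tyrobp, had 13 and 153 counts and 3.84 (3.02 to 4.78). Both were below the filter, and their intervals overlapped that of Fcgr4 (2.74 to 4.78). With 1 added to each FPKM, the log2 fold change was 1.62 for Trem2 and 0.69 for Lair1, against 2.39 for Fcgr4.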
